A study of Mus musculus with 8 samples.

Results

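Mouse embryonic fibroblasts whose Taf4 gene was deleted and which then received full-length human TAF4 were compared with fibroblasts that had kept a Taf4 allele, to ask how close transcript levels in the rescued cells came to those of the control. The comparison took 4 of the 8 RNA-seq libraries of the series, 2 of the full-length rescue and 2 of the control. Transcripts were summed per gene and chromosome, and autosomal genes with at least 1 FPKM (sequenced fragments, scaled to transcript length and library size) in 2 or more of the 8 libraries were kept, which left 11819 of 23281 gene and chromosome pairs. Of these, 179 had no transcript of at least 300 bases and were set aside, so that 11640 genes were tested.

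All cells were C57BL/6 embryonic fibroblasts grown in DMEM with fetal bovine serum. The control is labelled Taf4 loxp/-, that is, 1 allele carrying loxP sites and 1 null allele, although another field of its labels calls it wild type. The rescue libraries are clone 1 and clone 2 of Taf4 -/- cells that stably carry full-length human TAF4, so the rescue differs from the control in having no mouse Taf4 allele as well as in carrying the human protein. The other groups, used here for values side by side, are Taf4 -/- cells without a transgene (knockout) and Taf4 -/- cells with human TAF4 that lacks its TAFH domain. The labels give no promoter for the transgene and do not say how the clones were derived or whether each library of a group had a culture of its own, and a p-value therefore reflects the spread among these particular samples, which may be technical.

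TAF4 is a subunit of TFIID, the general transcription factor that recognises core promoters through the TATA-binding protein TBP and the TBP-associated factors, and helps assemble RNA polymerase II there. Its TAFH domain is a docking surface for activators, among them the E proteins, which are basic helix-loop-helix factors that bind E-box DNA and are held inactive by the Id proteins. In fibroblasts TAF4 is known for its influence on growth, on matrix genes and on responses to signalling factors.

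Of the low FPKM values, 96.2% to 97.4% in each library were whole multiples of 1 fragment within 0.05 of a fragment, and these steps implied about 17200000 and 17300000 fragments in the control libraries, 17100000 and 16900000 in the rescue clones, 14800000 in each knockout library, and 14300000 and 16200000 in the clones with TAFH-deleted TAF4. The 2 control libraries differed by no more than sampling noise, with a chi-square per gene of 0.749 ± 0.0289 (SE) over 1217 genes with 2 to 7 fragments, where noise alone gives 1, and 0.669 to 0.994 in the bins with more fragments, the highest of which (0.994 ± 0.151) is at the level of noise. The knockout pair lay between 0.541 and 0.639. Each of these pairs was averaged and counted as 1 sample. Between the rescue clones, which were counted separately, the same measure was 1.40 ± 0.0403 at 2 to 7 fragments and 5.10 ± 0.318 in the highest bin, which starts at 100 fragments. The control therefore enters as a lone sample that is assumed to vary like the clones. No tested gene was listed above 188 FPKM in the 4 libraries, and Gapdh, which every cell uses, was listed at 0.0682 to 0.599 FPKM over the 8 libraries, so levels of very abundant transcripts and of genes with many near-identical copies were not taken at face value.

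On the listed values, most transcripts in the rescue clones lay close to the control. Of the 11640 genes, 7976 (68.5%) were within 1.25-fold of the control and 10098 (86.8%) within 1.5-fold, where differences are means of log2(FPKM + 1), a scale that understates the change of genes near 1 FPKM. The genes that lay further away were nearly all lower. In the rescue, 508 genes (4.36%) lay 2-fold or more below the control and 20 (0.172%) 2-fold or more above it, while by any amount 55.2% of genes were lower. At 4-fold there were 72 lower genes against 1 higher, and at 8-fold 18 lower genes against 0 higher. These counts keep genes whose listed values trade places with a gene at the same locus, described with the differences between clones. Among them are Ndufs5 (-2.27) and Amd2 (-1.33) on the lower side and Amd1 (1.35) on the higher side. BC002163, which trades with Ndufs5, is past 4-fold higher on its listed values. At 2-fold the clones gave like counts when taken singly. Clone 1 had 507 lower and 39 higher genes, and clone 2 had 543 lower and 39 higher. In both clones 435 genes were at least 2-fold lower, but only 7 were at least 2-fold higher. Another 32 genes were 2-fold higher in clone 1 only, and 32 in clone 2 only. Lower genes made up 96.2% of those past 2-fold as deposited and 83.6% after quantile normalization, which raised the number of higher genes to 85. For scale, the knockout had 668 genes (5.74%) that far below the same control libraries and 94 (0.808%) that far above them.

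**Figure D1:**
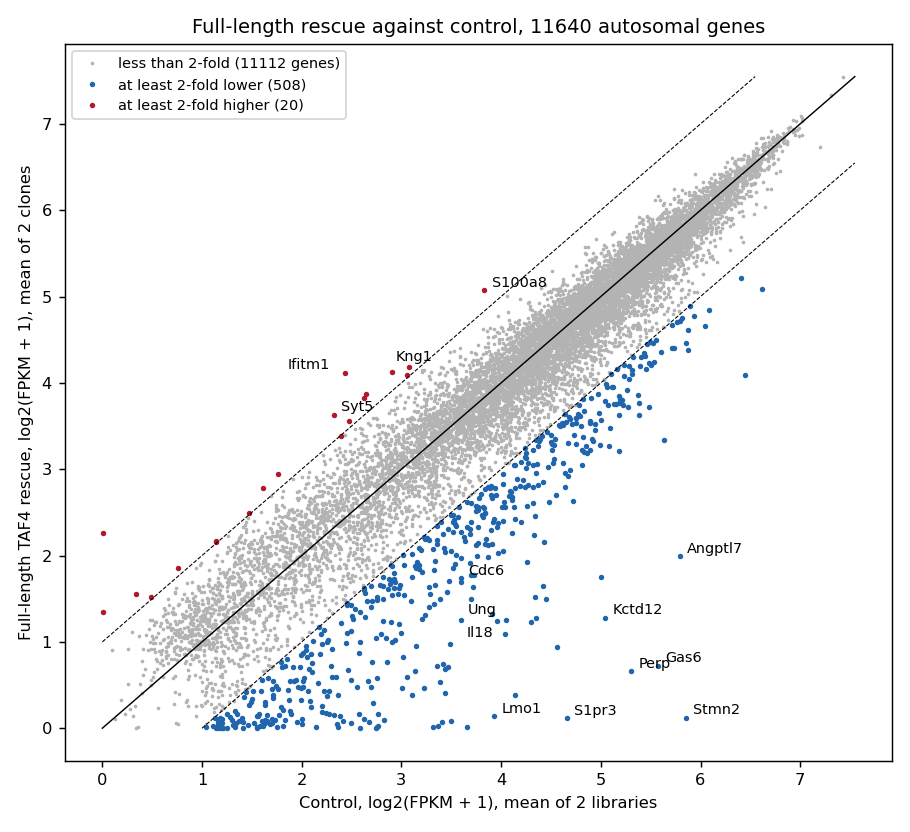
Mean log2(FPKM + 1) of the control (horizontal axis) against the mean of the full-length rescue clones (vertical axis) for 11640 autosomal genes, with the line of equality and dashed lines at 2-fold. The 508 genes at least 2-fold lower in the rescue (blue) spread far from the line, down to Stmn2 and Gas6. The 20 genes at least 2-fold higher (red) mostly stay near the dashed line.

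No gene passed the limma test at a Benjamini-Hochberg adjusted p of 0.05, with 6 samples and 2 residual degrees of freedom, and 1181 genes had an unadjusted p under 0.05, of which 966 were lower and 215 higher. The smallest adjusted p by limma was 0.0867, shared by Stmn2, Gas6, Gpc6 and Tbx20. Stmn2, Gpc6 and Tbx20 were under 1 FPKM in all libraries but the control pair, so they passed the filter on low values only through the group where they are high, and their p-values carry that selection. The spread in that fit came from the full-length and the TAFH-deleted clones together. When limma was fitted to the control and the full-length clones alone, 1859 genes (16%) were called lower and 710 (6.1%) higher, with a spread estimated from 1 pair of clones. Because the result of the test depended on which clones set the spread, levels are described below as higher or lower with their values in each library. Libraries of the groups did not overlap for 5362 lower genes (46.1%) and 4126 higher genes (35.4%), so the absence of overlap is common in this comparison and marks few genes out.

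The mouse Taf4 gene, listed as Taf4a, was at 11.1 and 11.5 FPKM in the control libraries, 12.5 and 12.4 in the knockout, and 14.5 and 15.03 in the full-length clones. These values do not check the labels, since the deleted exons are not given and fragments of the human transgene can align to the mouse gene. Of 15 tested subunits of TFIID, 10 were lower and 5 higher in the rescue, none by 2-fold, with a median difference of -0.11 beside -0.0351 over all genes. The split was 8 lower and 7 higher under quantile normalization or trimmed-mean scaling. Tbp, the TATA-binding subunit, was at 33.2 and 33.8 FPKM in the control and 25.2 and 26.1 in the clones, the largest difference in the list at -0.37 ± 0.12 (SE, adjusted p = 0.456 by limma). Taf4b, the Taf4 paralog, was at 2.31 and 2.64 FPKM in the control and 1.82 and 2.07 in the clones.

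The E proteins and their Id inhibitors lay near the control on the mean of the clones, with differences from -0.24 to 0.03. Tcf3, which encodes E2A, was at 59.6 and 60.7 FPKM in the control and 59.8 and 57.3 in the clones, and Tcf12, which encodes HEB, at 45.1 and 45.0 against 42.0 and 43.3. Tcf4, which encodes E2-2, was lower in both clones, at 44.9 and 45.3 FPKM against 38.3 and 37.9, a difference of -0.24 ± 0.10 (SE, adjusted p = 0.525 by limma). Among the Id genes, Id1 was at 79.0 and 81.2 FPKM in the control but at 80.4 in clone 1 and 64.5 in clone 2, so its mean difference of -0.15 came from clone 2. Id2 was at 48.3 and 46.8 FPKM in the control, 46.0 in clone 1 and 35.5 in clone 2. Id3 was at 108 and 109 FPKM in the control and 109 and 110 in the clones, and Id4 at 1.99 and 1.59 against 2.41 and 1.38. None of the 7 genes differed by 2-fold, and the signs for Tcf3 and Id3 reversed under quantile normalization.

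Genes of the cell cycle were lower than the control as a group. All 35 tested DNA replication genes were lower in both clones than in both control libraries, beside 46.1% of all genes. Of the 35, 23 (65.7%) were at least 2-fold lower, beside 4.36% of all genes. Their median difference was -1.16 (clone 1 -1.14, clone 2 -1.25), and -1.14 under quantile normalization. All 35 tested mitosis genes were lower too, 9 of them by at least 2-fold, with a median of -0.73 (clone 1 -0.88, clone 2 -0.65). Fitted to the control and the full-length clones alone, with the control as a lone sample, limma called 34 of the 35 replication genes and 26 of the 35 mitosis genes lower, beside 16% of all genes, whereas it called 0 of either list with all groups. Against the same control libraries the knockout had medians of -0.84 for replication genes and -0.17 for mitosis genes.

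Replication genes are known to be driven at the start of S phase by E2F factors, and mitosis genes by the MuvB complex and NF-Y through a cell cycle homology element and CCAAT boxes. The 250 bases before the start of each gene were searched on both strands in promoters of RefSeq (GRCm38.p6), which matched 8296 of the tested symbols. The deposited table uses the mm9 build, so these promoter coordinates are not comparable with its own. An E2F motif, TTTCCCGC or TTTGGCGC, was present in 5 of 29 replication promoters (17.2%), 0 of 30 mitosis promoters, 2.77% of the promoters of tested genes and 1.35% of all 27025 promoters. The letters CCAAT were present in 22 of 30 mitosis promoters (73.3%) and 17 of 29 replication promoters (58.6%) beside 36.8% of those of tested genes and 34.5% of all. The cell cycle element TTTGAA was present in 9 of 30 mitosis promoters (30.0%) and 5 of 29 replication promoters (17.2%) beside 9.86% and 16.3%. These are matches of letters and not measured binding, and the difference between these shares was not tested. The promoters of the replication genes with the largest differences among those that hold an E2F match, Cdc6 at chr11:98907901-98908150 (plus strand) and Mcm5 at chr8:75109259-75109508 (plus strand), read as follows on the strand of the gene, with the E2F match in capitals.
Cdc6: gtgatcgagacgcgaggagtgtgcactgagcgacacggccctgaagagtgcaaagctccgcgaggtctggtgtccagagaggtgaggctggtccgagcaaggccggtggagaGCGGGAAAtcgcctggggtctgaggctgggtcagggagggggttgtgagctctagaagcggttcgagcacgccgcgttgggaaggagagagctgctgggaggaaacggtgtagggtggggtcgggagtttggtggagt
Mcm5: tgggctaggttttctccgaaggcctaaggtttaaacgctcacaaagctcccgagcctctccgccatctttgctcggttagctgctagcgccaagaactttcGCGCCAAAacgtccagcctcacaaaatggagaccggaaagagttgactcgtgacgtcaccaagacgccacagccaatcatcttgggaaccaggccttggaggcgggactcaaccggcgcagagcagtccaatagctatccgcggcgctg
The mitosis genes Kif11 at chr19:37376132-37376381 (plus strand) and Ect2 at chr3:27153879-27154128 (minus strand), chosen in the same way, are shown with TTTGAA and CCAAT in capitals on either strand.
Kif11: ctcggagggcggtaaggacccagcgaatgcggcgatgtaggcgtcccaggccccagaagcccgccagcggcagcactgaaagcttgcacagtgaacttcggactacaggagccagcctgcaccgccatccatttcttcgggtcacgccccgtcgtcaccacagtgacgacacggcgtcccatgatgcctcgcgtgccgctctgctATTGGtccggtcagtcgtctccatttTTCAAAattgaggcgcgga
Ect2: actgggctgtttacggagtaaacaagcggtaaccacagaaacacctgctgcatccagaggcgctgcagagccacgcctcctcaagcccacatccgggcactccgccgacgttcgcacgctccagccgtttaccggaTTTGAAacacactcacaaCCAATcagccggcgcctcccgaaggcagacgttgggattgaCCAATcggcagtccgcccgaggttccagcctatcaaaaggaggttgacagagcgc
Cdc6 and Mcm5 carry their E2F match on the opposite strand to the gene, Kif11 holds 1 CCAAT and 1 TTTGAA match, and Ect2 holds 3 matches in all.

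The replication genes can be ordered by role. Among genes that load the replicative helicase, Cdc6 was at 11.2 and 11.1 FPKM in the control and 2.50 and 2.17 in the clones. Its mean FPKM was 4.76-fold lower, and its difference on log2(FPKM + 1) was -1.86 ± 0.88 (SE). Cdt1, its partner in loading, was at 35.9 and 34.6 FPKM in the control and 13.7 and 11.6 in the clones. Mcm5, a subunit of the helicase itself, was at 57.8 and 57.4 FPKM in the control and 20.2 and 19.5 in the clones. In each of these genes both clones lay far below both control libraries. The helicase cofactors Gins1 and Gins2 were at 24.6 and 23.3 against 7.505 and 6.03 FPKM and at 55.3 and 58.1 against 21.4 and 20.6 FPKM. Ccne2, the cyclin that partners CDK2 at S phase entry, was at 24.3 and 23.7 FPKM in the control and 6.59 and 5.36 in the clones, and E2f8, an atypical E2F repressor, at 12.4 and 12.6 against 3.41 and 2.63. Clone 2 was the lower of the clones in each of these genes.

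Enzymes of nucleotide supply and repair were lower as well. Ung, the uracil-DNA glycosylase, had the largest difference of the list, with 14.5 and 14.6 FPKM in the control and 1.41 and 1.32 in the clones. Its mean FPKM was 10.7-fold lower, and its difference on log2(FPKM + 1) was -2.72 ± 0.93 (SE). It was at 2.85 and 2.57 FPKM in the knockout while the TAFH-deleted clones had 4.24 and 21.8, the latter above the control. Tk1, thymidine kinase, was at 35.6 and 34.8 FPKM against 10.2 and 12.7, and Uhrf1, which guides maintenance DNA methylation, at 33.3 and 33.0 against 10.6 and 9.67. The smallest differences in the list were those of Pcna, the polymerase clamp, at 20.9 and 21.9 against 16.6 and 14.6 FPKM, and of the clamp loader subunit Rfc4 at 40.5 and 41.0 against 29.4 and 28.7 FPKM.

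Among mitosis genes, Aurkb, the kinase of the chromosomal passenger complex, was at 41.1 and 40.6 FPKM in the control and 10.8 and 11.9 in the clones (log2 difference -1.76 ± 0.31, SE, adjusted p = 0.269 by limma). Its partner Birc5, survivin, was at 58.2 and 57.0 FPKM against 23.5 and 23.5. The spindle motor gene Kif11 was at 27.1 and 27.3 FPKM against 8.86 and 9.80, and Ect2, which starts cytokinesis, at 31.2 and 31.0 against 10.5 and 11.3. These genes lay nearer to the control in the knockout, with Kif11 at 17.0 and 18.1 FPKM, Ect2 at 20.4 and 20.9 and Birc5 at 45.4 and 43.9, measured against the same control libraries. The spindle checkpoint gene Mad2l1 was at 37.3 and 37.7 FPKM in the control and 13.5 and 14.7 in the clones. Kif20a had the smallest difference, at 39.0 and 39.2 FPKM against 27.4 and 34.7. Clone 1 was the lower of the clones in all 35 mitosis genes, whereas it was the lower in 4 of the 35 replication genes.

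**Figure D2:**
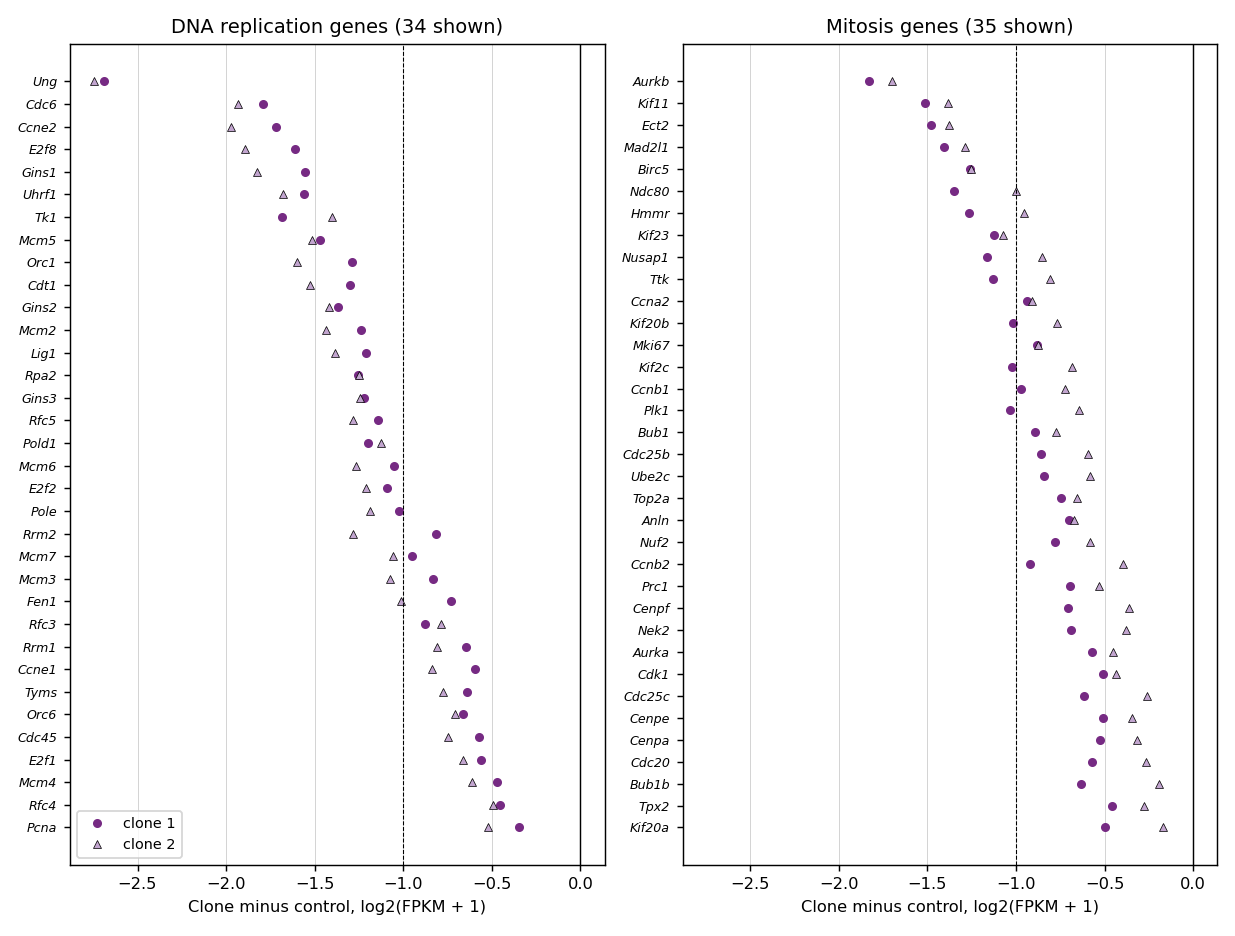
Difference of each full-length rescue clone from the mean control in log2(FPKM + 1) for 34 DNA replication genes (left) and 35 mitosis genes (right), 1 row per gene, clone 1 as circles and clone 2 as triangles, with a dashed line at 2-fold lower. Every point lies left of 0, from Ung at the top of the left panel to Pcna and Kif20a at the bottom.

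Cell cycle regulators outside these lists lay on both sides of the control. Of 26 CDK inhibitors and p53 targets, 14 were higher and 12 lower, with a median of 0.02. Cdkn1c, the imprinted CDK inhibitor p57, was at 5.33 and 4.59 FPKM in the control and 0.708 and 0.974 in the clones. Cdkn2b, the inhibitor p15, was higher at 34.5 and 35.5 FPKM against 46.9 and 47.9, and the death receptor gene Fas at 45.0 and 46.2 against 69.3 and 67.2.

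The 14 genes with the largest deficits in the rescue, among those with a group mean of at least 5 FPKM and no overlap, were far below both control libraries in both clones, most of them under 1 FPKM, with Angptl7, Kctd12 and Msln above 1 FPKM in at least 1 clone. Stmn2, which encodes a microtubule-destabilising protein best known from neurons, was at 57.1 and 56.6 FPKM in the control and at 0.138 and 0.0348 in the clones, where 1 fragment on a transcript of 2 kilobases is worth about 0.033 FPKM. Its log2 difference was -5.74 ± 0.28 (SE, adjusted p = 0.0867 by limma). Gas6, the ligand of the TAM receptor kinases, was at 47.2 and 45.8 FPKM in the control and 0.760 and 0.545 in the clones. Both genes were also low in the knockout, Stmn2 at 0.0397 and 0.159 FPKM and Gas6 at 2.996 and 3.59.

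S1pr3, a receptor for sphingosine 1-phosphate, was at 24.4 and 24.2 FPKM in the control and 0.109 and 0.0553 in the clones. Angptl7, a secreted angiopoietin-like protein, was at 54.7 and 54.0 FPKM in the control and differed between the clones, at 1.54 in clone 1 and 5.22 in clone 2. Perp, a membrane protein of desmosomes and a p53 target, was at 38.0 and 39.1 FPKM in the control and 0.898 and 0.314 in the clones. For Perp the TAFH-deleted clones stood far apart, at 2.23 and 26.1 FPKM. Msln, the surface protein mesothelin, was at 23.1 and 22.1 FPKM in the control and 0.552 and 1.36 in the clones, below the knockout at 6.68 and 6.89. Gpc6, a glypican of the cell surface, was at 11.9 and 11.4 FPKM in the control and at 0.00897 and 0.00906 in the clones, about 1 fragment in each. The heart transcription factor gene Tbx20 was at 9.27 and 9.34 FPKM in the control and 0.0188 and 0.0190 in the clones. The remaining genes were Lmo1, Kctd12, Fxyd1, Tmem117, Sprr1a and Fam19a5, with log2 differences from -3.30 to -3.79. All 14 were lower than the control in both knockout libraries as well, but they were chosen against these same control libraries. Fxyd1 and Sprr1a, like Stmn2, Gpc6 and Tbx20, were under 1 FPKM in all libraries but the control pair. For these genes the filter on low values fixed in advance that the knockout would be lower.

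**Figure D3:**
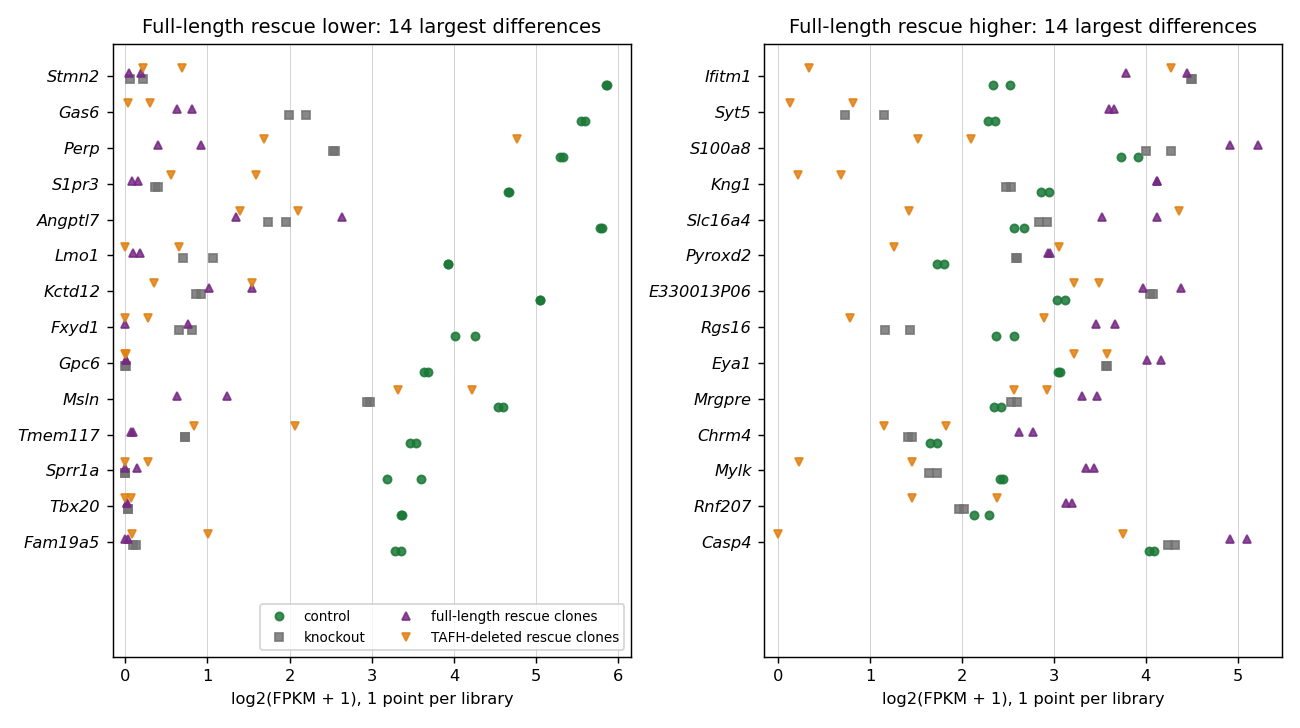
Levels in log2(FPKM + 1) of the 14 genes with the largest deficit (left) and the largest excess (right) in the full-length rescue, 1 point per library and 1 symbol per group. On the left the control circles stand apart at 3 or more units while the rescue triangles lie mostly under 1, and on the right the rescue lies about 1 unit above the control.

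E proteins bind E-boxes, and the promoters of the genes lower in the rescue were searched for the E-box letters CACCTG and CAGCTG. Of the 508 genes at least 2-fold lower, 345 had a promoter in the table, and 52 of these (15.1%) held CACCTG, beside 13.9% of the promoters of tested genes and 17.1% of all promoters. CAGCTG was present in 39 (11.3%), beside 11.3% and 12.8%. The S1pr3 promoter at chr13:51408368-51408617 (plus strand) and the Angptl7 promoter at chr4:148500463-148500712 (minus strand) are shown as those of the genes with the largest deficits that hold either E-box, with the match in capitals and GRCm38.p6 coordinates.
S1pr3: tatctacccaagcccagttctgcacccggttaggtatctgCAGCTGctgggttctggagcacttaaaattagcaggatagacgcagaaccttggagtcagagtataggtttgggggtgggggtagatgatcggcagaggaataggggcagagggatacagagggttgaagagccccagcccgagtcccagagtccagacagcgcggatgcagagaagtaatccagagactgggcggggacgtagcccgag
Angptl7: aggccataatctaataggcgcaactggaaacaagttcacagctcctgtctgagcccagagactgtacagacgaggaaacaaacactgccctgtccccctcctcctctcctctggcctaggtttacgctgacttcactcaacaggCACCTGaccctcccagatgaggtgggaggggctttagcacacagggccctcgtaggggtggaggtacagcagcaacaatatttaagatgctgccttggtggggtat
The S1pr3 window holds 1 CAGCTG and the Angptl7 window 1 CACCTG, each a match of letters only.

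The genes above the control were fewer and the differences smaller. Ifitm1, an interferon-inducible membrane protein, was at 4.05 and 4.75 FPKM in the control and 12.8 and 20.8 in the clones, a log2 difference of 1.68 ± 1.71 (SE, adjusted p = 0.751 by limma). It was at 21.6 and 21.7 FPKM in the knockout. Syt5, a synaptotagmin of secretory vesicles, was at 4.12 and 3.89 FPKM in the control and 11.1 and 11.6 in the clones, but at 1.22 and 0.655 in the knockout. Its level in the rescue was thus above both of the groups without the transgene.

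S100a8, a calcium-binding alarmin, was at 12.3 and 14.1 FPKM in the control and 36.4 and 29.3 in the clones. Kng1, kininogen, was at 6.29 and 6.71 FPKM in the control and 16.4 in each clone, beside 4.80 and 4.59 in the knockout. Rgs16, which shortens signalling by G proteins, was at 4.16 and 4.94 FPKM against 9.98 and 11.7, and Mylk, myosin light chain kinase, at 4.47 and 4.33 against 9.21 and 9.87. Among the control, knockout and full-length rescue, Kng1, Rgs16 and Mylk thus stood in the same order as Syt5, with the knockout lowest and the rescue highest. The TAFH-deleted clones were at 0.0907 and 0.757 FPKM for Syt5 and at 0.602 and 0.159 for Kng1. For Rgs16 they were at 0.724 and 6.45 FPKM, and for Mylk at 1.75 and 0.173. The remaining 8 genes, Slc16a4, Pyroxd2, E330013P06, Eya1, Mrgpre, Chrm4, Rnf207 and Casp4, had log2 differences from 0.95 to 1.20. Amd1 and Ndufs5, which share a locus with a similarly annotated gene, are described with the differences between clones.

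Genes of the extracellular matrix lay on both sides of the control. Of 19 collagens 15 were higher (median 0.12), and the same count was found under quantile normalization. Col27a1, a fibrillar collagen, was at 5.19 and 5.05 FPKM in the control and 9.11 and 9.91 in the clones. Of the 4 lower collagens in this list Col18a1, the source of endostatin, had the largest deficit, at 10.6 and 10.3 FPKM against 3.10 and 2.17. Its log2 difference was -1.66, whereas Col2a1, counted with the cartilage and bone markers and not here, had -2.29. The small leucine-rich proteoglycans, which bind collagen fibrils, had a median of -0.65 with 6 of 8 lower, and clone 2 (-0.72) was lower than clone 1 (-0.20). Prelp was at 16.4 and 16.5 FPKM against 7.59 and 6.95, Fmod (fibromodulin) at 50.4 and 49.8 against 30.2 and 26.2, and Dcn (decorin) at 24.0 and 24.4 against 19.1 and 11.6. In the knockout, against the same control, the median of these genes was -1.98.

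Of 29 matrix glycoproteins and laminins 19 were higher and 10 lower. Thbs2, thrombospondin 2, was at 2.89 and 3.17 FPKM in the control and 0.492 and 0.290 in the clones. Npnt, the integrin ligand nephronectin, was at 41.2 in both control libraries and 25.3 and 22.99 FPKM in the clones, beside 0.214 and 0.273 in the knockout. Vcan, the proteoglycan versican, was higher, at 29.4 and 29.2 FPKM against 43.7 and 45.4. Among 16 elastic fibre genes 12 were higher, led by Efemp1, a fibulin, at 5.19 and 6.28 FPKM against 10.9 and 11.0, while Emilin2 was lower at 42.1 and 42.9 against 25.0 and 25.3. Of 22 matrix proteases and inhibitors 15 were higher, among them the collagenase gene Mmp13 at 6.52 and 6.81 FPKM against 14.9 and 11.0 and the gelatinase gene Mmp2 at 46.4 and 46.6 against 69.9 and 71.0. The largest difference in that list was a deficit, in the membrane-type metalloproteinase gene Mmp15 at 1.32 and 1.66 FPKM against 0.345 and 0.160. Of 13 integrins 9 were higher, and Itga6, the laminin receptor chain, was lower at 7.49 and 7.67 FPKM against 1.99 and 1.60.

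Signalling pathways held single genes with large deficits, and the lists did not share a direction. The Notch pathway had a median of -0.65 over 11 genes, 7 of them lower and 4 higher. Its target Hey1, a repressor of the helix-loop-helix family, was at 11.4 and 10.8 FPKM in the control and 1.79 and 1.03 in the clones. The ligand gene Dll1 was at 1.42 and 1.45 FPKM against 0.309 and 0.293, and the modifier Lfng at 15.9 and 15.4 against 7.46 and 9.21.

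Of 32 Wnt pathway genes 16 were higher and 16 lower, around a median of 0.00297, and 4 lay 2-fold or more below the control. Notum, a secreted enzyme that inactivates Wnt ligands, was at 29.2 and 29.6 FPKM in the control and 11.1 and 7.33 in the clones. Tcf7, the nuclear factor TCF1, was at 3.07 and 3.32 FPKM against 0.493 and 0.732, the ligand Wnt10a at 10.1 and 10.7 against 4.60 and 3.90, and Rspo1, which amplifies Wnt signalling, at 4.80 and 4.503 against 2.55 and 1.05. All 4 were below the control in both clones.

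In FGF and EGF signalling 14 of 20 genes were higher and 3 lay 2-fold or more below the control. Those 3 were Etv4, an ETS factor that FGF signalling induces, at 14.4 and 14.8 FPKM against 5.58 and 3.08, the ligand Nrg1 at 14.01 and 13.9 against 5.61 and 5.39, and the receptor Fgfr3 at 9.04 and 9.45 against 4.07 and 3.08. Among 16 genes of PDGF, HGF and VEGF signalling 12 were higher and 4 lower. Hgf, hepatocyte growth factor, was higher at 4.45 and 5.12 FPKM against 11.9 and 8.46. Flt4, the receptor VEGFR3, was lower at 2.62 and 2.73 against 0.478 and 0.441. The IGF axis held Igf2, the imprinted growth factor, at 2.31 and 2.24 FPKM against 0.353 and 0.254. Of 32 genes of TGF-beta and BMP signalling 20 were higher, and Inhbb, an activin subunit, was at 10.5 and 10.4 FPKM against 5.18 and 3.97.

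Axon guidance genes were split, 17 lower and 14 higher of 31, and the sign of their median of -0.01 reversed under both other scalings. Sema3d, a secreted semaphorin, was at 20.3 and 20.5 FPKM in the control and 6.59 and 5.90 in the clones, and Slit3, a ligand of Robo receptors, at 12.0 and 11.8 against 3.97 and 3.55. Cartilage and bone markers were also split, with a median of -0.0048 whose sign reversed under both other scalings. Col2a1, the collagen of cartilage, was at 48.2 and 48.9 FPKM in the control and 9.26 and 9.04 in the clones. Of 12 Hox genes 9 were higher, with a median of 0.13.

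Interferon and inflammatory genes were mostly above the control. Of 35 interferon-stimulated genes 31 were higher, 27 of them without overlap, beside 44.8% higher and 35.4% higher without overlap over all genes. Their median was 0.41 as deposited, 0.63 under quantile normalization and 0.46 under trimmed-mean scaling, and none of the listed genes was at least 2-fold higher. Ifitm1, the interferon-inducible gene with a log2 difference of 1.68 described above, was not a member of this list. The median was larger in clone 1, at 0.56, than in clone 2, at 0.28. The knockout, against the same control libraries, had a median of 0.72. Irf7, a regulator of interferon genes, was at 13.2 and 13.9 FPKM in the control, 28.6 and 18.9 in the clones, and 40.3 and 39.4 in the knockout. Gbp2, an interferon-induced GTPase, was at 3.89 and 3.83 FPKM in the control and 7.99 and 7.36 in the clones. Limma fitted to the control and the full-length clones alone called 6 of the 35 higher and 1 lower, beside 6.1% and 16% of all genes, and called 0 with all groups.

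Of 25 NF-kB and acute-phase genes 23 were higher (median 0.27), beside 44.8% higher over all genes. Cp, ceruloplasmin, was at 6.75 and 6.53 FPKM against 12.0 and 10.9, and Nos2, the inducible nitric oxide synthase, at 5.17 and 5.16 against 11.7 and 6.87. Ptges, a prostaglandin E synthase, was an exception, at 6.82 and 6.95 FPKM against 4.80 and 3.02. Of 25 chemokines and interleukins 19 were higher. The cytokine Il6 was at 28.2 and 28.1 FPKM in the control and 49.0 and 44.7 in the clones, and Ccl20, which draws CCR6-bearing cells, at 13.8 and 12.4 against 26.0 and 21.4. The 2 genes at least 2-fold lower in this list were Il18, at 15.2 and 15.98 FPKM against 1.24 and 1.52, and Il1rn, the antagonist of the interleukin 1 receptor, at 33.0 and 32.3 against 11.4 and 13.5.

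Among the metabolic lists, sterol and fatty acid synthesis had the lowest median. Of 28 tested genes 24 were lower and 2 of them at least 2-fold, and the median was -0.40. The median was -0.61 in clone 1 but -0.23 in clone 2, and clone 1 was the lower in all 28 genes. Sc4mol, a sterol methyl oxidase, was at 38.8 and 38.6 FPKM in the control, 10.5 in clone 1 and 24.4 in clone 2. Stard4, a sterol carrier, was at 15.4 FPKM in both control libraries, 5.85 in clone 1 and 9.31 in clone 2. Mvk, mevalonate kinase, was lower to a like extent in both, at 33.9 and 31.9 FPKM against 15.5 and 17.4. In the fit to the compared groups alone, limma called 2 of the 28 genes lower, a smaller share than the 16% of all genes, and with all groups it called 0.

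**Figure D4:**
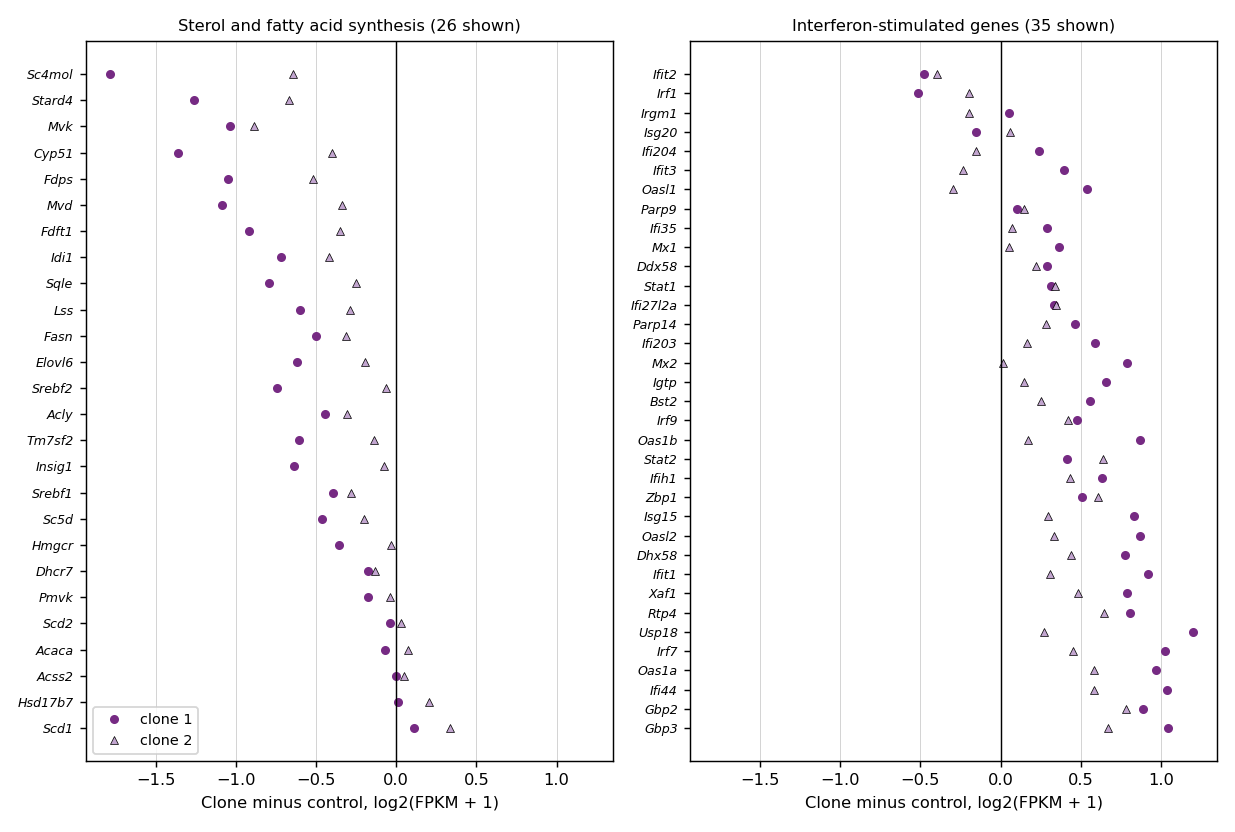
Difference of each full-length rescue clone from the mean control in log2(FPKM + 1) for 26 genes of sterol and fatty acid synthesis (left) and 35 interferon-stimulated genes (right), clone 1 as circles and clone 2 as triangles. Clone 1 lies left of clone 2 for every sterol gene shown, with a wide gap at Sc4mol, and to its right for most interferon genes.

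Other metabolic groups differed little. Genes of the ATF4 and unfolded protein responses had a median of -0.12, with 23 of 26 lower as deposited but 19 under quantile normalization and 17 under trimmed-mean scaling. The serine synthesis gene Psat1 was at 83.4 and 84.8 FPKM against 53.1 and 47.8, and the amino acid transporter gene Slc7a5 at 59.3 and 59.2 against 39.9 and 29.9. NRF2 antioxidant genes had a median of -0.11, and Akr1b8, an aldo-keto reductase, was at 30.1 and 29.3 FPKM against 11.3 and 8.66. Of 28 glycolysis and hypoxia genes 20 were higher, while Car12, a membrane carbonic anhydrase, was at 5.41 and 5.69 FPKM in the control and 0.233 and 0.219 in the clones.

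**Figure D5:**
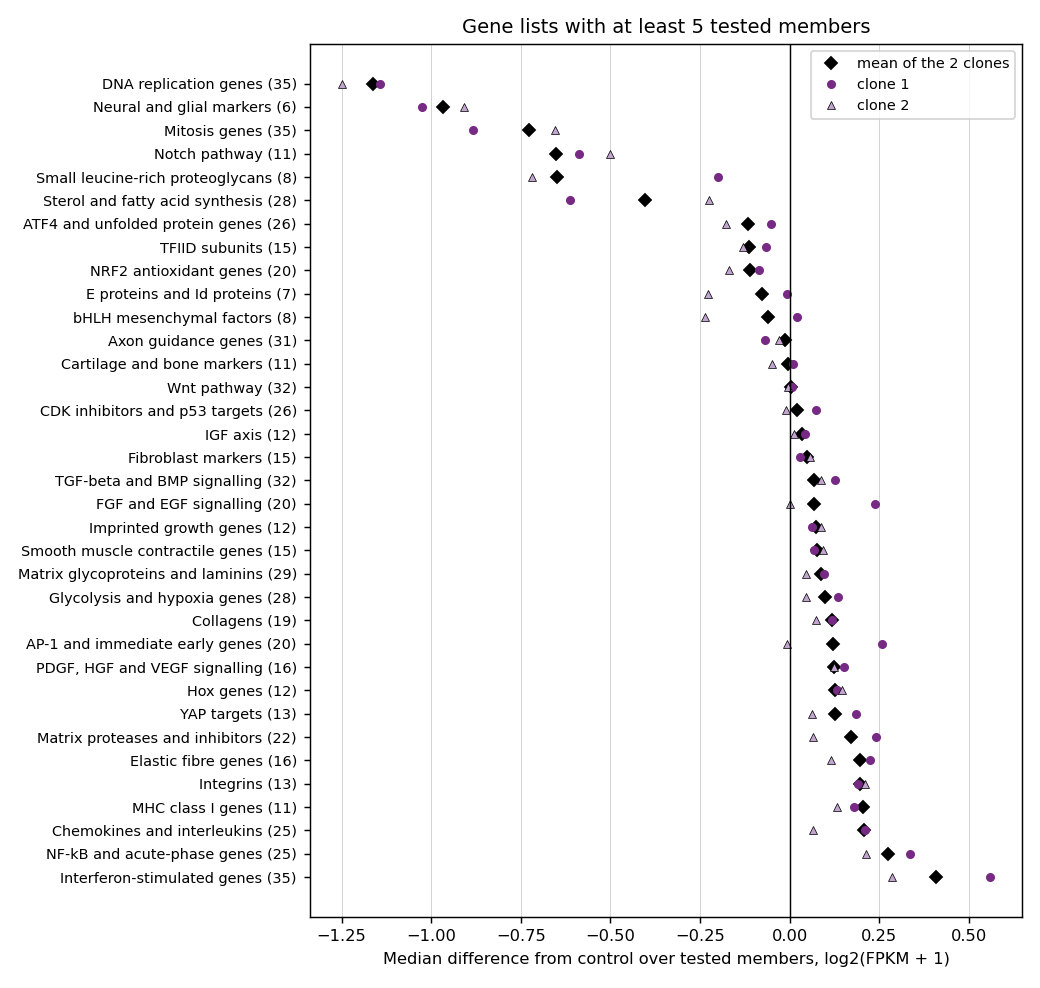
Median difference from the control in log2(FPKM + 1) over the tested members of each gene list with at least 5 tested members (number in brackets), for the mean of the clones (diamonds), clone 1 (circles) and clone 2 (triangles). DNA replication genes lie furthest left at -1.16 and interferon-stimulated genes furthest right at 0.41, and most lists lie within 0.25 of 0.

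The cells carried fibroblast markers in both groups. The 16 fibroblast markers summed to 1203 and 1204 FPKM in the control and 1190 and 1202 FPKM in the clones, and 10 of the 15 tested were higher. Most of each sum came from Col1a1, Col1a2, Col3a1, Fn1, P4hb, Sparc, Vim and S100a4, at 96.9 FPKM or more in all 4 libraries. Levels of such abundant transcripts were not taken at face value, so the near-equal sums do not show how far these genes differ. Col1a1, the main fibroblast collagen, was at 113 FPKM in both control libraries and 116 and 118 in the clones, while the surface marker Thy1 was at 0.0773 FPKM or less in all 4. Epithelial markers summed to 28.8 and 28.5 FPKM in the control and 13.0 and 10.5 in the clones. All 4 that were tested were lower on the mean of the clones, 3 of them without overlap, beside 46.1% lower without overlap over all genes. Pkp1, a desmosomal plakophilin, was at 9.499 and 10.1 FPKM against 0.643 and 0.566. Pkp2 overlapped the control, at 6.64 and 6.84 FPKM against 7.26 in clone 1 and 4.51 in clone 2. The defining epithelial genes Epcam, Krt8, Krt17, Cldn3 and Cldn7 were at 0 in all 4 libraries.

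Neural and glial markers summed to 125 and 122 FPKM in the control and 45.0 and 42.8 in the clones, and 5 of 6 tested were lower. Besides Stmn2 these were led by Nes, nestin, at 8.03 and 7.51 FPKM against 0.584 and 0.579, and Gap43, a growth cone protein, at 20.3 and 19.1 against 5.34 and 6.79, while Snap25, Nefl, Nefm and Sox10 were at 0 in all 4. Endothelial markers summed to 8.62 and 10.0 FPKM in the control and 4.27 and 4.12 in the clones, nearly all of it Egfl7, and Cldn5, Tie1 and Robo4 were at 0 in all 4. Of skeletal and heart muscle markers Nkx2-5, a cardiac homeobox gene, was at 5.66 and 5.03 FPKM against 0.799 and 0.179, and Myod1, Myog and Ckm were at 0 in all 4. The other tested marker of that list, the actin gene Acta1, had a small difference the other way, at 0.896 and 0.893 FPKM against 1.38 and 0.866. Of the adipocyte markers Pparg, the regulator of fat cell formation, was at 23.9 and 23.4 FPKM against 8.68 and 6.33, while Fabp4 was at 51.7 and 52.1 against 57.5 and 50.4. Blood cell markers summed to 15.2 and 16.9 FPKM in the control and 24.3 and 17.3 in the clones, mostly Cd14, Cd68 and Lyz2, and Tyrobp, Lyz1 and Hbb-b1 were at 0 in all 4. In bulk samples such as these, fewer cells of a type and less RNA per cell cannot be told apart.

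The clones differed from each other by at least 2-fold in 39 genes (0.335%), of which 28 were lower in clone 2, and the SD of their log2 differences was 0.204. Among these, the acute-phase inhibitor gene Serpina3n was at 6.01 FPKM in clone 1 and 1.13 in clone 2, on either side of the control at 3.17 and 2.92. Ndufs5, a subunit of mitochondrial complex I, was listed at 20.3 and 20.7 FPKM in the control, 0.0163 in clone 1 and 18.6 in clone 2. The predicted gene BC002163 at the same place on chromosome 4 was listed at 20.9 FPKM in clone 1, and the sum of both was 20.3 and 20.7 FPKM in the control and 20.9 and 18.6 in the clones. The polyamine synthesis genes Amd1 and Amd2, at the same place on chromosome 10, traded values in the same way, and their sum was 6.25 and 5.87 FPKM in the control and 5.54 and 6.48 in the clones. For these pairs the listed values of the single genes are uncertain and only the sums were taken as measured, although the single genes remain in the counts of 2-fold genes above.

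The share of genes at least 2-fold lower depended on the level in the control. It was 8.68% of genes at 1 to 5 FPKM, 6.11% at 5 to 20 FPKM and 2.28% at 20 to 100 FPKM. Above 100 FPKM it was 0 of 99 genes, in a range where listed values stop at 188 FPKM and were not taken at face value. Implied control fragments were also set against the positions on both strands of a transcript. They came to over 20% of positions for 3255 of 8117 genes with this measure, but for only 74 of 360 genes past 2-fold. Whether crowded positions narrow the differences below 100 FPKM was not tested. Under 1 FPKM it was 0 of 298 genes, because so low a level cannot fall by 1 on the log2(FPKM + 1) scale. Of the 508 genes, 365 had at least 5 FPKM in the control and 169 had a mean under 1 FPKM in the rescue. A further point on the choice of genes is that 88 of the 508 passed the filter on low values through the control libraries alone, so a difference was built into their selection.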

How the data were processed

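Per the submitters' processing notes, the tools were CASAVA 1.8, TopHat, Cufflinks and Cuffdiff and the build mm9, and other versions and options are not given in the sources used here. The authors deposited FPKM values for 30028 transcripts, which they scaled to library size and transcript length, and the transcript length in bases, per the file headers. Date-like symbols, 47 in number, were restored to gene names. Transcripts were summed per symbol and chromosome, and log2(FPKM + 1) was analysed with limma 3.58.1 in R 4.3.3 (trend, two-sided, Benjamini-Hochberg over 11640 genes), tested on simulated data first. A 2-fold difference is a difference of 1 on that scale. The members, gene lists and tests were chosen with earlier results of these data known.

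Named genes are the 14 largest differences each way (group mean of at least 5 FPKM, no overlap, leaving out predicted genes, small RNAs and replication-dependent histones), up to 4 members of each list by absolute difference, the Taf4 paralogs, E proteins and Id genes, and the 6 genes that differ most between clones. Further list members named in the text and the cell type markers were chosen after their values were seen. Some genes that these rules pick are not reported here. Promoters and symbols came from RefSeq (GRCm38.p6). Alternatives covered the samples fitted, pseudocount, filter, scaling, chromosomes, the replicate block and leaving out each library. Replicate numbers are shared between groups, but the differences of replicate 1 and 2 were correlated between groups by only -0.078 to 0.0615, so they do not pair the samples. One fragment on a transcript of 2 kilobases is worth 0.0322 to 0.0390 FPKM, which limits statements on lower values.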

Additional observations from a re-analysis of the deposited data

How the results depend on the processing

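The number of genes called by limma depended on which samples set the spread. Against 0 higher and 0 lower with all groups, the counts were 710 and 1859 with the compared groups alone, 721 and 1879 without the TAFH-deleted group, and 560 and 1576 with each library counted. With each library counted and a replicate block they were 266 and 1028, although the replicate numbers do not pair the samples. Leaving out 1 library at a time gave 0 to 732 higher and 0 to 1964 lower, where leaving out TAFH-deleted clone 1 (700 and 1964) or clone 2 (732 and 1925) made the calls. A pseudocount of 5 gave 0 higher and 23 lower, no filter on low values 140 and 800, and keeping short transcripts 4 and 13. Alternatives added after seeing the data gave 201 and 991 (compared groups, no filter) and 1754 and 1617 (compared groups, quantile normalization). The cause was not tested beyond the construction of these settings.

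Past 2-fold, 508 lower genes stayed within 1.5 times of that count except with a pseudocount of 5 (173). The 20 higher genes became 121 with a pseudocount of 0.1, 3 with 5, 85 under quantile normalization, 68 with short transcripts kept and 63 for the compared groups under quantile normalization, and leaving out 1 library gave 20 to 39, with 39 when either rescue clone was left out. Replication and mitosis genes remained 35 of 35 lower under quantile normalization and trimmed-mean scaling. Of 40 list medians, 9 changed sign with no filter on low values, 6 without rescue clone 1, 2 without rescue clone 2, 3 under quantile normalization and 2 under trimmed-mean scaling. Of 43 named genes, 3 changed sign under quantile normalization and 2 when either clone was left out. Depth limits statements on genes at about 1 fragment.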

Other observations

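Genes of the X chromosome were outside the comparison, which covers autosomes. Their 381 genes that met the same filters had a median difference of -0.40 from the control (clone 1 -0.41, clone 2 -0.39), and 49 of them (12.9%) were at least 2-fold lower in the rescue and 0 at least 2-fold higher. Autosomal medians in the rescue ran from -0.17 on chromosome 15 to 0.15 on chromosome 12. In the knockout, against the same control libraries, the X genes had a median of 0.12, although the genes named next were lower there. Bhlhb9, an X-linked gene, was at 25.0 and 26.1 FPKM in the control, 0.0224 and 0.0453 in the clones and 10.5 and 9.85 in the knockout. Pir, the X-linked gene of the nuclear protein pirin, was at 10.0 and 10.1 FPKM in the control, 0 and 0.0847 in the clones and 8.51 and 8.41 in the knockout. Chrdl1, which encodes a BMP antagonist, was at 8.74 and 9.73 FPKM in the control, 1.10 and 0.713 in the clones and 0.800 and 0.731 in the knockout.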
